A study of Labeotropheus fuelleborni and Maylandia zebra with 12 samples.

Results

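Replacement teeth were compared with taste bud epithelium in Labeotropheus fuelleborni, a rock-dwelling cichlid fish of Lake Malawi that renews both its teeth and its taste buds through life. The 6 libraries of this species, of the 12 in the series, were chosen by their labels: 3 of replacement tooth (replicates 0, 3 and 4) and 3 of taste bud (replicates 1, 2 and 4). The tooth samples were unerupted teeth pulled from their crypts in the jaw bone after the soft tissue had been stripped away. The taste bud samples were strips of lower jaw epithelium of about 1 by 10 mm, cut on the lip side of the outer tooth row, so that they held the surrounding oral epithelium as well as taste buds. No treatment, transgene, age or sex is given in the labels, and nothing says whether a library came from 1 animal or from pooled tissue. The p-values therefore measure only how far these libraries lie apart, and part of that may be technical.

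A replacing fish tooth is built by odontoblasts, which secrete a matrix of type I collagen and mineralize it to dentin, under an epithelium that covers the crown. Bone cells of the crypt share much of that gene set. A taste bud is a cluster of elongated sensory cells set in stratified epithelium, whose keratinocytes are held together by desmosomes. In mammals the surface keratinocytes harden with a cornified envelope, and fishes carry several of the same genes. Both organs form from oral epithelium under Wnt, BMP, Hedgehog and FGF signals, and the series concerns the stem cells behind the renewal of both.

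Totals per library lay between 111626 and 300663, and 1 count was worth 3.99 to 10.4 CPM, counts scaled to library size after TMM normalization. The tooth libraries held 111626, 122957 and 300663 counts, so that replicate 4 was the deepest, and the taste bud libraries 220903, 248332 and 147480. Ribosomal protein genes, which every cell uses, held 2.51%, 2.53% and 6.59% of the counts in tooth, against 6.63%, 4.18% and 3.19% in taste bud. The glycolytic enzyme gene gapdh, also used by every cell, had only 5 counts in all tooth libraries and 1 in all taste bud libraries. Libraries were stranded, but which strand the counting took is not stated in the sources used here. For every gene below it is thus uncertain whether a count belongs to it or to an opposite-strand gene at the same place. Per-library values are given for replicates 0, 3 and 4 of tooth and then for replicates 1, 2 and 4 of taste bud.

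Tooth and taste bud differed at 774 of 2243 genes tested (34.5%; edgeR's quasi-likelihood test, adjusted p under 0.05), of which 494 were higher in tooth (22.0% of genes tested) and 280 in taste bud (12.5%). The first principal component of log2 CPM carried 74.6% of the variance and placed the 3 tooth libraries between -54.1 and -42.4 and the 3 taste bud libraries between 40.6 and 52.6. The 2 sets of libraries did not overlap at 752 of the 774 genes, against 45.4% of all genes tested (27.2% with tooth above and 18.2% with taste bud above). The 774 were called on the same 6 libraries, so this is no separate support. Differences that passed were large, with a median absolute log2 fold change (log2FC) of 3.39 and a smallest one of 1.45. At a median SE of 0.66, small differences could hardly pass. Of the genes higher in tooth, 85 had no taste bud count at all, and 7 of those higher in taste bud had none in tooth. With library totals alone as the scale, all log2FC rose by a median of 0.45 and the calls split into 593 higher in tooth and 211 in taste bud (73.8% in tooth, against 63.8% with TMM). In a bulk sample, fewer cells of a type and less RNA per cell cannot be told apart.

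**Figure D1:**
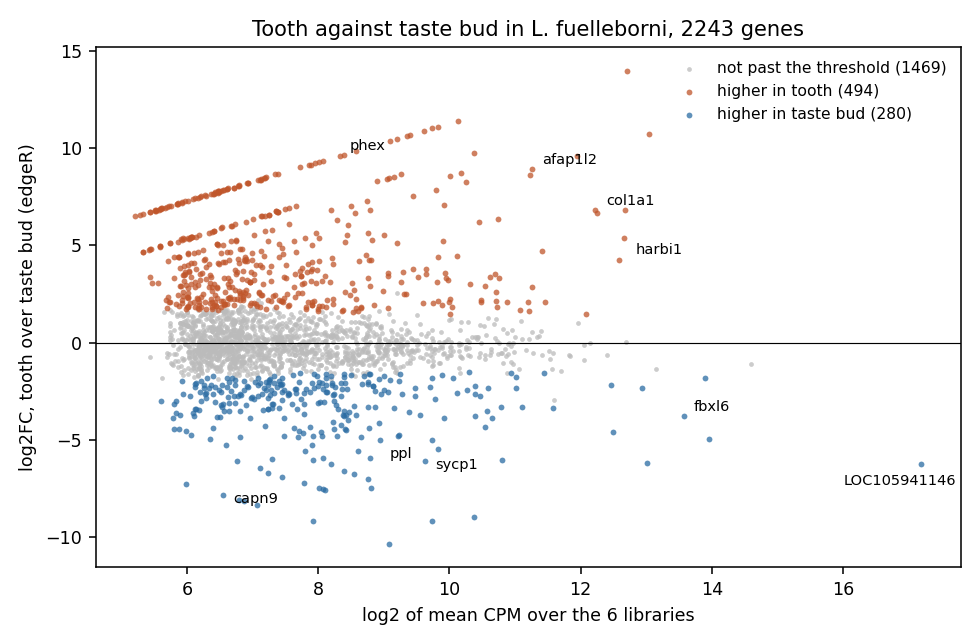
Level against difference for the 2243 genes tested. The x axis is the log2 of mean CPM over the 6 libraries, the y axis the edgeR log2FC of tooth over taste bud, and each point is a gene, coloured by whether it passed an adjusted p of 0.05. The 494 genes higher in tooth lie above 0 and the 280 higher in taste bud below it; the straight upper edge is made of genes with 0 counts in taste bud, whose fitted value depends on the prior count.

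Genes of the dentin and bone matrix were high in tooth. Type I collagen, the main protein of both, had 5037, 3649 and 20091 CPM in tooth, against 67.8, 44.6 and 172 CPM in taste bud for its alpha 1 chain gene col1a1, or 9592 ± 9119 CPM in tooth against 94.9 ± 68.0 CPM in taste bud (SD, n = 3 each; log2FC 6.68 with an SE of 0.85, adjusted p = 2.22e-06). Every tooth library lay above every taste bud library, and tooth replicate 4 was the highest. Its partner chain gene col1a2 had 5161, 3425 and 19732 CPM in tooth, against 27.1, 61.3 and 164 CPM in taste bud, 112-fold higher by the ratio of means (adjusted p = 2.46e-06). The collagen-binding glycoprotein gene sparc, with 1917, 1681 and 6512 CPM in tooth, against 74.6, 27.9 and 17.2 CPM in taste bud, was 84.5-fold higher, and col10a1, a short-chain collagen of mineralizing tissue in fishes and of hypertrophic cartilage in mammals, had 684, 832 and 6776 CPM in tooth, against 20.3, 33.4 and 60.3 CPM in taste bud. In all 4 genes replicate 4 was the highest tooth library.

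Genes for phosphate and mineral handling were often counted in tooth alone. The endopeptidase gene phex, mutated in mammalian hypophosphataemic rickets, had 446, 367 and 1121 CPM in tooth, against none in any taste bud library, at least 95.2-fold higher. Here and below, "at least" sets the mean CPM of one tissue against 3 counts over all libraries of the other. Enzymes that free or guard phosphate at mineralization sites also had no taste bud count: alkaline phosphatase alpl (104, 116 and 219 CPM in tooth), the phosphatase phospho1 of matrix vesicles (72.5, 98.4 and 275 CPM) and the nucleotidase entpd5 (145, 125 and 315 CPM). The citrate transporter gene slc13a5 was at least 22.8-fold higher in tooth. In contrast, ankh, which exports the mineralization inhibitor pyrophosphate, had 82.9, 169.9 and 132 CPM in tooth, against 129, 151 and 103 CPM in taste bud (log2FC 0.01, 95% interval -1.29 to 1.31), and the groups overlapped.

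Of 16 features on the tooth mineral matrix list, 10 passed the filter on low counts. Of these 9 were higher in tooth, against 22.0% of all genes tested, none was higher in taste bud, and ankh did not pass the test. The median log2FC of the 10 was 7.17, or 5.52 with genes of 0 taste bud counts at their lower bound, against 0.04 over all genes tested. Each of the 9 passed the filter through tooth alone, so the filter fixed their direction and these figures are no result about the list. Over all 16 features the list summed to 14033, 10714 and 56100.3 CPM in tooth, against 420.4, 346 and 568 CPM in taste bud. Among those untested, the channel gene panx3 had 93.3, 53.7 and 323 CPM and the secretory kinase gene fam20a 82.9, 35.8 and 139.7 CPM in tooth, with no taste bud count for either, while the matrix Gla protein gene mgp had 2 tooth counts and 0 taste bud counts. Without tooth replicate 4, phospho1 and slc13a5 no longer passed the filter, and the other 7 calls were made. The same 2 genes missed the threshold when the 3 libraries with the highest share of ribosomal protein counts were left out, a fit with 2 tooth libraries and 1 taste bud library, which was assumed to vary like the tooth libraries.

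**Figure D2:**
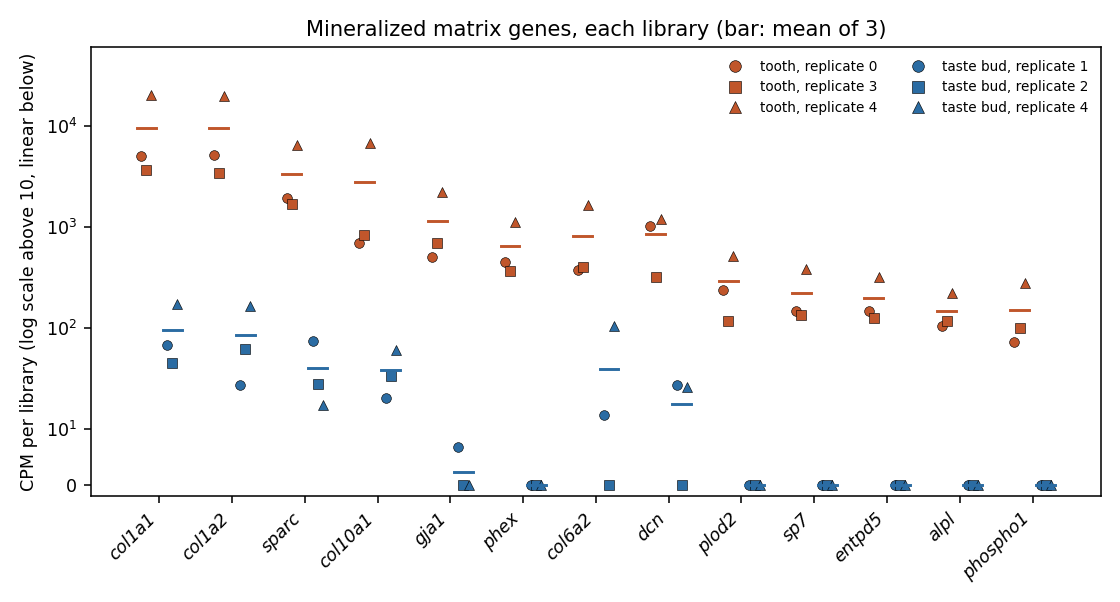
Mineralized matrix genes in each of the 6 libraries. The y axis is CPM, on a log scale above 10 and linear below; markers are single libraries, with tooth to the left of taste bud within each gene, and short bars are means of 3. The tooth libraries lie above the taste bud libraries for each of the 13 genes, tooth replicate 4 (triangle) is the highest tooth library for each, and 6 genes had no taste bud count.

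The whole collagen list followed, which counts col1a1, col1a2 and col10a1 again. Of 28 collagen features in the table, 19 had a higher mean CPM in tooth and 4 in taste bud. Over all features with unequal means, 63.1% were higher in tooth. Of the 28, 11 were tested, with a median log2FC of 4.48. Of these, 3 did not pass and 8 were higher in tooth (72.7%, against 22.0% of all genes tested). Each of the 8 passed the filter through tooth alone, so the filter fixed their direction and the count is no result about the list. The fibrillar chain genes col11a1 (176, 169.9 and 479 CPM in tooth, against 6.78, 0 and 34.4 CPM in taste bud) and col27a1 (207, 179 and 587 CPM in tooth, against none in any taste bud library) were among them, as was col22a1, at least 27.7-fold higher. The beaded-filament chain genes were high too, col6a1 with 187, 322 and 1173 CPM in tooth, against 0, 0 and 112 CPM in taste bud and col6a2 with 373, 402 and 1640.0 CPM in tooth, against 13.6, 0 and 103 CPM in taste bud. Their taste bud counts lay mostly in replicate 4. The call of col6a1 ended without tooth replicates 0, 3 or 4 (adjusted p 0.06 to 0.0658) and with the DESeq2 test (0.172), whereas that of col6a2 held with any 1 library left out.

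Genes that process and bind collagen were examined next. The lysyl hydroxylase gene plod2, which prepares collagen for cross-links, had 238, 116 and 515 CPM in tooth, against none in any taste bud library. The collagen chaperone gene serpinh1 had 82.9, 62.6 and 483 CPM in tooth, against 0, 0 and 8.61 CPM in taste bud. With the prolyl hydroxylase subunit gene p4ha1, these made 3 of 6 tested collagen maturation genes higher in tooth, against 22.0% of all genes tested. The other 3 did not pass. Both plod2 and serpinh1 passed the filter through tooth alone, so the count does not speak for the whole list. Over its 23 features, 19 had a higher mean CPM in tooth and 4 in taste bud. The small leucine-rich proteoglycans, which coat collagen fibrils, were high in tooth: decorin dcn at 1026, 322 and 1193 CPM in tooth, against 27.1, 0 and 25.8 CPM in taste bud, lumican lum at 290.2, 89.4 and 742 CPM in tooth, against 0, 0 and 8.61 CPM in taste bud, and biglycan bgn at 145, 152 and 515 CPM in tooth, against none in any taste bud library. With the microfibril gene fbn1 (58.9-fold (10.2 to 2364) by summed counts), 4 of 5 tested matrix glycoprotein and proteoglycan genes were higher in tooth, against 22.0% of all genes tested. Each of the 4 passed the filter through tooth alone, so the filter fixed their direction and the count is no result about the list. Over its 35 features, 28 had a higher mean CPM in tooth and 3 in taste bud. Of all features with unequal means, 63.1% were higher in tooth. Fibronectin fn1 was too low to be tested, with 39 counts in tooth against 2 in taste bud, and postn, a matrix gene of the periodontal ligament in mammals, had 24 against 24.

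Enzymes that cut the matrix and their inhibitors leaned the same way. Of 6 tested members 4 were higher in tooth, against 22.0% of all genes tested, and 2 did not pass. Each of the 4 passed the filter through tooth alone, so the filter fixed their direction and the count is no result about the list. Over its 36 features, 29 had a higher mean CPM in tooth and 5 in taste bud. Of all features with unequal means, 63.1% were higher in tooth. The membrane collagenase gene mmp14 had 311, 188 and 515 CPM in tooth, against 13.6, 11.1 and 17.2 CPM in taste bud, 24.2-fold higher. The gelatinase gene mmp2, which mmp14 activates, had 311, 268 and 746 CPM in tooth, against 67.8, 11.1 and 25.8 CPM in taste bud. Their inhibitor gene timp2 had 446, 250.4 and 459 CPM in tooth, against 0, 0 and 34.4 CPM in taste bud, and adam23, a disintegrin without protease activity in mammals, was at least 20.5-fold higher. No tooth library of these 4 genes overlapped a taste bud library, and tooth lay wholly above at 27.2% of all genes tested. The channel-forming connexin gene gja1 (connexin 43), which couples odontoblasts and osteoblasts, had 497, 698 and 2223 CPM in tooth, against 6.78, 0 and 0 CPM in taste bud, a ratio of 659-fold (118 to 26082) by summed counts; intervals in parentheses are 95% and cover counting error only.

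Other genes of large fold are best known from other tissues. The nucleotidase-domain gene nt5dc1 (1897, 1136 and 511 CPM in tooth), dnajb13, a co-chaperone known from sperm and cilia (1150.4, 948 and 1181 CPM), and the gene pitpnm3 (570.0, 581 and 239 CPM) had no taste bud count. Carbonic anhydrase ca12, a membrane enzyme of acid-base balance, had 953, 644 and 2095 CPM in tooth, against 0, 5.57 and 0 CPM in taste bud. Within tooth, nt5dc1 and pitpnm3 were lowest in replicate 4, whereas ca12 was highest there.

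The named genes with the largest difference in mean CPM included several whose products work in the nucleus. The transposase-derived gene harbi1 had 16406, 14532 and 6835 CPM in tooth, against 292, 201 and 422 CPM in taste bud, 41.3-fold higher (log2FC 5.37 with an SE of 0.68, adjusted p = 2.37e-06), a higher mean than that of col1a1. The DNA polymerase delta subunit gene pold2 had 22821, 7190.1 and 5072 CPM in tooth, against 346, 624 and 887 CPM in taste bud. The gene primpol, a primase that restarts stalled replication forks, had 5804, 5160.1 and 1995 CPM in tooth, against 563, 541 and 697 CPM in taste bud. The actin adaptor gene afap1l2 had 5358, 7244 and 2059 CPM in tooth, against 0, 5.57 and 25.8 CPM in taste bud, 467-fold higher. Lack of overlap between the groups was a condition of choosing these 4 genes. In each of them tooth replicate 4 was the lowest tooth library. The same order held for dpp6, a potassium channel partner (11.4-fold higher), bcl2l12 (10.3-fold) and rhobtb3 (2.78-fold). The actin-sequestering peptide gene tmsb4x had 5379, 2951 and 5367 CPM in tooth, against 1641, 909 and 654 CPM in taste bud. The call of tmsb4x ended without taste bud replicates 2 or 4 (adjusted p 0.0542 to 0.0595). The difference of rhobtb3 was near the threshold (adjusted p = 0.0477) and was lost without tooth replicates 0 or 3 or taste bud replicates 1, 2 or 4 (adjusted p 0.111 to 0.265), with DESeq2 size factors (0.0518), with limma-voom (0.0607) and with no filter (0.255).

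Transcription factors of tooth and bone were next. The osteoblast and odontoblast factor gene sp7 (osterix) had 145, 134 and 383 CPM in tooth, against none in any taste bud library, at least 32.6-fold higher. The gene lhx8, a homeobox gene of dental mesenchyme, had 218, 259 and 168 CPM in tooth, against 6.78, 16.7 and 25.8 CPM in taste bud. With tbx2 (24.7-fold higher), 3 of 6 tested members of the tooth patterning list were higher in tooth, against 22.0% of all genes tested. The other 3 did not pass, pitx1 and dlx3 among them. Both sp7 and lhx8 passed the filter through tooth alone, so the count does not speak for the whole list. Over its 24 features, 19 had a higher mean CPM in tooth and 3 in taste bud. The homeobox gene pitx1, expressed in early dental and oral epithelium, had 82.9, 143 and 319 CPM in tooth, against 183, 111 and 86.1 CPM in taste bud (adjusted p = 0.563; log2FC 0.55 with an SE of 0.64), and dlx3 had 114, 161 and 359 CPM in tooth, against 142, 61.3 and 43.0 CPM in taste bud (adjusted p = 0.126). In both of these the groups overlapped. Of the 18 members too low to be tested, runx2, which acts upstream of sp7 in bone, had 25 counts in tooth against 2 in taste bud. Forkhead genes foxl1 (114, 107 and 83.8 CPM in tooth and no taste bud count) and foxf1 (11.5-fold), both Hedgehog targets in mammalian gut mesenchyme, were also higher in tooth.

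Signalling genes were sparsely counted. In the Hedgehog pathway, whose ligand binds patched receptors and turns on gli factors, 2 of 16 members were tested. Both were higher in tooth, against 22.0% of all genes tested. Each passed the filter through tooth alone, so the filter fixed their direction and the count is no result about the pathway. Over all 16 features the list summed to 580.4, 474 and 1173 CPM in tooth, against 74.6, 55.7 and 86.1 CPM in taste bud. The receptor gene ptch1, also a target of the pathway, had 82.9, 107 and 204 CPM in tooth, against 0, 0 and 8.61 CPM in taste bud. Both calls held with any 1 library left out, and neither held without the 3 libraries richest in ribosomal protein counts. The ligand gene shh was below the filter, with 43 counts in tooth against 1 in taste bud, and so was the target gene gli1, with 71 against 4. In ptch1, shh and gli1 every tooth library was above every taste bud library, as at 27.2% of all genes tested. Of these, shh and gli1 were chosen after their values were seen.

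In the Wnt pathway 5 of 49 members were tested and 3 were higher in tooth, against 22.0% of all genes tested. A gene could pass the filter through tooth alone, as frzb did, so the count does not speak for the whole pathway. Over the 49 features, 41 had a higher mean CPM in tooth and 5 in taste bud. Of all features with unequal means, 63.1% were higher in tooth. The secreted antagonist gene frzb had 332, 125 and 427 CPM in tooth, against none in any taste bud library. The central effector gene ctnnb1 (beta-catenin), which also serves cell adhesion, had 269, 259 and 527 CPM in tooth, against 81.4, 55.7 and 43.0 CPM in taste bud, 5.86-fold higher. The receptor-removing ligase gene znrf3 was 5.63-fold higher, a call that ended without tooth replicate 3 or taste bud replicate 1 (adjusted p 0.0616 to 0.186) and with no filter (0.0603); apc2 and rspo3 did not pass. In the BMP and TGF-beta pathways 4 of 6 tested members (34 in the table) were higher in tooth, against the same 22.0%. Of these, ltbp1, ltbp2 and fstl1 passed the filter through tooth alone, so the count does not speak for the whole list. Over the 34 features, 31 had a higher mean CPM in tooth and 2 in taste bud. The ligand gene bmp6 had 4881, 3863 and 2047 CPM in tooth, against 989.9, 1889.8 and 611 CPM in taste bud, 3.09-fold higher, but its call was lost without tooth replicates 0 or 3 or taste bud replicates 1 or 4 (adjusted p 0.111 to 0.193) and with no filter (0.199). The latent TGF-beta binding protein genes ltbp1 and ltbp2 were 73.4-fold (12.8 to 2936) and at least 17.1-fold higher, and fstl1, a follistatin-like secreted protein gene, was 21.6-fold (7.07 to 107) higher. The BMP target gene id1 did not pass (adjusted p = 0.371). Without tooth replicate 4, ltbp1, ltbp2 and fstl1 fell below the filter and bmp6 was the 1 call.

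For the FGF and Notch pathways 0 of 2 and 0 of 3 tested members passed with edgeR, DESeq2 or limma-voom, and 0 and 1 had an unadjusted p under 0.05. The epithelial receptor gene fgfr2 had 135, 98.4 and 243 CPM in tooth, against 149, 50.2 and 34.4 CPM in taste bud (adjusted p = 0.279) and the Notch target gene nrarp had 166, 134 and 119.7 CPM in tooth, against 40.7, 44.6 and 60.3 CPM in taste bud (adjusted p = 0.0644); for nrarp the libraries did not overlap. Of all genes tested, 921 had an unadjusted p under 0.05. In the Eda pathway, which sets tooth and scale placodes, tnfrsf19 was the 1 tested member of 9 and was 3.62-fold higher in tooth (adjusted p = 0.0407), a call that ended without tooth replicates 0, 3 or 4 or taste bud replicates 2 or 4 (adjusted p 0.0606 to 0.207) and with no filter (0.229). Of 49 axon guidance genes 3 passed the filter, each through tooth alone, so that their direction was fixed by the filter and the count is no result about the family: the semaphorins sema3e (135, 143 and 152 CPM) and sema4c (82.9, 98.4 and 91.8 CPM) and the receptor nrp1 (82.9, 71.5 and 87.8 CPM), with no taste bud count for any of them. Over all 49 features the list summed to 1575, 1377 and 2239 CPM in tooth, against 217, 234 and 327 CPM in taste bud.

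Taste bud samples were marked by the surface epithelium. The plakin genes ppl and evpl, which tie desmosomes to keratin under the cornified envelope, were both low in tooth. The gene ppl had 10.4, 17.9 and 47.9 CPM in tooth, against 1031, 881 and 956 CPM in taste bud, 37.7-fold higher in taste bud (log2FC -5.02 with an SE of 0.71, adjusted p = 8.13e-06). Its relative evpl had 10.4, 0 and 39.9 CPM in tooth, against 373, 579.8 and 577 CPM in taste bud. The envelope gene scel (sciellin) had 0, 0 and 7.98 CPM in tooth, against 149, 217 and 207 CPM in taste bud. The membrane serine protease gene st14 (matriptase), which acts in barrier formation, had 31.1, 8.94 and 16.0 CPM in tooth, against 224, 134 and 146 CPM in taste bud. These were the 4 tested members of the cornified envelope list. Each passed the filter through taste bud alone, so the filter fixed their direction and the count is no result about the list. Over all 9 features in the table the list summed to 72.5, 26.8 and 148 CPM in tooth, against 1939, 1951 and 2186 CPM in taste bud. Of the 9, 7 had a higher mean CPM in taste bud and 2 in tooth. The envelope-crosslinking enzyme gene tgm1 was below the filter, with no tooth count and 142, 72.5 and 172 CPM in taste bud. In tooth the list was highest in replicate 4, at less than every taste bud library.

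Several desmosome and keratinocyte genes were higher in taste bud as well. Of 10 tested members of the oral keratinocyte list, 6 were higher in taste bud, against 12.5% of all genes tested. None was higher in tooth, and 4 did not pass. A gene could pass the filter through taste bud alone, as tp63 did, so the count does not speak for the whole list. Over all 17 features of the list, 14 had a higher mean CPM in taste bud and 3 in tooth. On the desmosome and hemidesmosome list, 6 of 10 features had a higher mean CPM in taste bud and 4 in tooth. Claudin and tight junction genes leaned to tooth, summing to 383, 367 and 642 CPM in tooth, against 156, 44.6 and 112 CPM in taste bud. The desmosomal plaque gene pkp3 had 104, 80.5 and 128 CPM in tooth, against 1356, 1856 and 973 CPM in taste bud, 13.4-fold higher in taste bud. The gene tp63, the factor that sets basal keratinocyte identity, had 0, 44.7 and 43.9 CPM in tooth, against 373, 206 and 284 CPM in taste bud, 9.74-fold higher in taste bud. The membrane-binding gene anxa1 had 82.9, 295 and 567 CPM in tooth, against 3356, 1472 and 912 CPM in taste bud, highest in taste bud replicate 1. The differentiation factor gene grhl1 was 16.8-fold higher in taste bud. The desmosomal gene perp (6.13-fold) and the hemidesmosome integrin gene itgb4 (5.82-fold) lost their calls, perp without taste bud replicate 1 (adjusted p = 0.138) and with limma-voom (0.0712) and itgb4 without tooth replicate 3 (adjusted p = 0.059) and with library totals alone (0.057). Desmoplakin dsp, needed in every desmosome, had 218, 241 and 295 CPM in tooth, against 610.2, 340.1 and 525 CPM in taste bud (log2FC -0.96, 95% interval -2.13 to 0.21), and the libraries did not overlap. The oral keratinocyte list summed to 746, 1324 and 2135 CPM in tooth, against 8366, 5224 and 4433 CPM in taste bud, with tooth replicate 4 the highest tooth library. The splicing factor gene esrp1, particular to epithelia in mammals, had no count in any tooth library, against 115, 94.8 and 68.9 CPM in taste bud and was below the filter. Of the keratins, the intermediate filament proteins of epithelia, 1 had a name in the table, krt222, with 30 counts in tooth against 40 in taste bud.

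**Figure D3:**
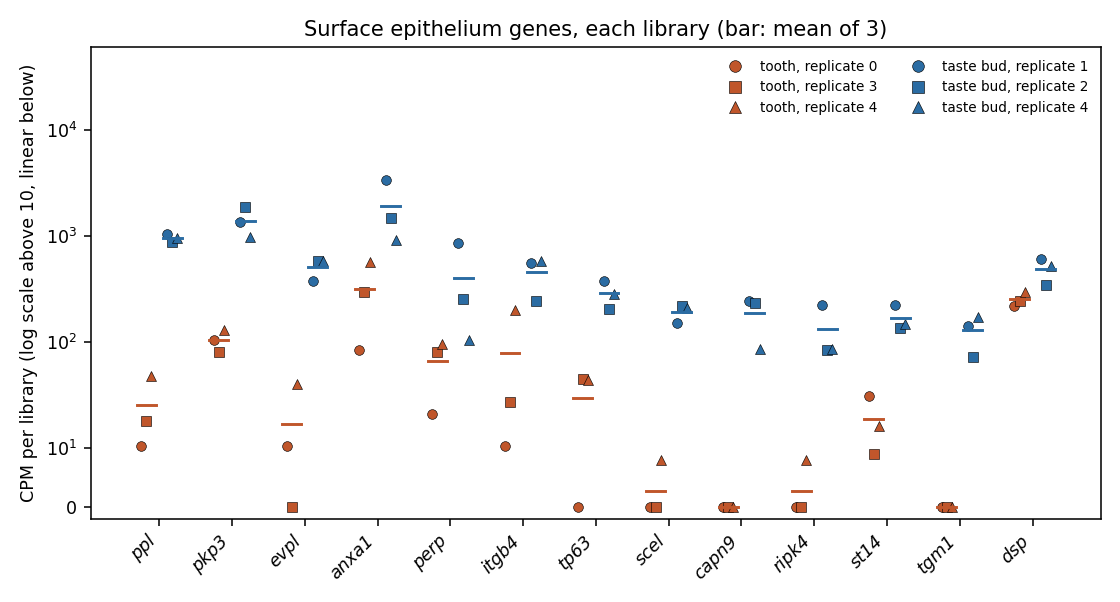
Surface epithelium genes in each of the 6 libraries. The y axis is CPM, on a log scale above 10 and linear below; markers are single libraries, with tooth to the left of taste bud within each gene, and short bars are means of 3. The taste bud libraries lie above the tooth libraries for each of the 13 genes shown; capn9 and tgm1 had no tooth count, dsp did not pass the test and tgm1 was not tested.

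Several genes of large fold in taste bud act in epithelia elsewhere. The calpain gene capn9, a protease of the digestive tract lining in mammals, had no count in any tooth library, against 244, 234 and 86.1 CPM in taste bud, a mean at least 28.8-fold that of tooth. The kinase gene ripk4, which drives keratinocyte differentiation, had 0, 0 and 7.98 CPM in tooth, against 224, 83.6 and 86.1 CPM in taste bud. The gene gmds, whose enzyme makes the precursor of GDP-fucose, had 62.2, 17.9 and 39.9 CPM in tooth, against 468, 1159.5 and 1816 CPM in taste bud, 28.7-fold higher in taste bud. The gene hid1, which helps form secretory granules, had 0, 0 and 3.99 CPM in tooth, against 434, 407 and 207 CPM in taste bud. Lack of overlap between the libraries of the 2 tissues was a condition of choosing these genes. The chondroitin polymerizing factor gene chpf2 (17.4-fold) and the fucosyltransferase gene fut11 (10.8-fold) were likewise higher in taste bud, among 6 tested glycosyltransferase and sulfotransferase genes of 80, where galnt2 was higher in tooth and 3 did not pass. Over all genes tested 12.5% were higher in taste bud and 22.0% in tooth. The call of galnt2 ended without tooth replicate 0 (adjusted p = 0.0633).

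Metabolic genes followed. The retinol-binding gene rbp7 had 10.4, 17.9 and 16.0 CPM in tooth, against 963, 1137 and 189 CPM in taste bud, 51.8-fold higher in taste bud. The AMP-activated kinase subunit gene prkaa2 had 0, 17.9 and 23.9 CPM in tooth, against 278, 697 and 430.4 CPM in taste bud. The mitochondrial genes lactb (10.4, 0 and 0 CPM in tooth, against 149, 390.2 and 103 CPM in taste bud) and mtfr2 (10.4, 17.9 and 7.98 CPM in tooth, against 393, 513 and 499 CPM in taste bud) were higher in taste bud. The gene aasdh was 32.5-fold higher in taste bud. The glucosylceramide synthase gene ugcg, which starts the barrier lipids of skin, had 1772, 1485 and 926 CPM in tooth, against 4949, 5379.6 and 2195 CPM in taste bud (adjusted p = 0.0324). Its call ended without tooth replicates 0, 3 or 4 or taste bud replicate 2 (adjusted p 0.0547 to 0.12) and with library totals alone (0.13).

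The named genes with the largest CPM difference in favour of taste bud were of varied function. The F-box gene fbxl6, a subunit of a ubiquitin ligase, had 2083, 1672 and 1129 CPM in tooth, against 17329, 32846 and 17836 CPM in taste bud, 13.9-fold higher in taste bud (log2FC -3.80 with an SE of 0.64, adjusted p = 3.89e-05). The DNA repair gene fam35a had 2062, 3345 and 2410.2 CPM in tooth, against 7702, 13396 and 18137 CPM in taste bud. The gene lrp2 (megalin), an endocytic receptor of absorptive epithelia, had 477, 528 and 223 CPM in tooth, against 2081, 5335 and 4511 CPM in taste bud. The 3 were chosen among genes whose groups did not overlap. Further genes were gtpbp6 (10.0-fold), jagn1, an endoplasmic reticulum protein (11.2-fold), sap25 (6.79-fold), hemk1, a methyltransferase (4.72-fold), the cytokine gene il17d (3.38-fold) and emc9 (2.96-fold), all higher in taste bud. The call of il17d ended without tooth replicate 0 (adjusted p = 0.0666) and with library totals alone (0.0624) and emc9 without tooth replicates 3 or 4 or taste bud replicates 2 or 4 (adjusted p 0.0517 to 0.144), with library totals alone (0.125), with limma-voom (0.0595) and at a minimum count of 20 (0.051).

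Synaptonemal complex genes, which pair chromosomes in meiosis, were counted in taste bud. The transverse filament gene sycp1 had 2, 3 and 5 counts in tooth against 83, 272 and 302 in taste bud, 69.3-fold higher in taste bud by mean CPM. Its partner in the complex, syce1, had 290.2, 313 and 108 CPM in tooth, against 1383, 1645 and 516 CPM in taste bud. With tex11, 3 of 3 tested genes of 18 were higher in taste bud, against 12.5% of all genes tested. A gene could pass the filter through taste bud alone, as sycp1 did, so the count does not speak for the whole list. Over the 18 features, 8 had a higher mean CPM in taste bud and 4 in tooth. The call of tex11 ended without tooth replicate 4 or taste bud replicate 2 (adjusted p 0.0625 to 0.102) and with library totals alone (0.0682), and with the 3 libraries richest in ribosomal protein counts left out 1 of the 3 passed, where syce1 had a log2FC of -0.91 against -2.34 with all libraries. The recombinase gene dmc1 and the other 14 members were too low to be tested.

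The label of the taste bud samples was set against taste cell genes. Of 17 features on the taste receptor cell list 1 was tested, trpm5, the cation channel of taste transduction, which had 1067, 975 and 587 CPM in tooth, against 1132, 1645 and 1567 CPM in taste bud (log2FC -0.73, 95% interval -1.84 to 0.38, adjusted p = 0.336). With ribosomal share as a covariate trpm5 passed (adjusted p = 0.0457). The groups did not overlap, and the highest tooth library lay close to the lowest taste bud library. The phospholipase gene plcb2, which acts upstream of trpm5, had 12 counts in tooth against 2 in taste bud, and calhm1, a transmitter release channel, had 0 against 1. The decarboxylase gene ddc of serotonin-making taste cells in mammals had 20.7, 0 and 7.98 CPM in tooth, against 33.9, 44.6 and 146 CPM in taste bud. The progenitor factor gene sox2 had 0, 8.94 and 16.0 CPM in tooth, against 33.9, 27.9 and 51.6 CPM in taste bud; both were below the filter. Over all 17 features the list summed to 1295, 1269.9 and 898 CPM in tooth, against 1275, 1773 and 1885 CPM in taste bud, where tooth replicate 0 lay above taste bud replicate 1. In each library most of that sum was trpm5, and 6 of the 17 features had no count.

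Genes of epithelial stem and progenitor cells were looked at because the series concerns renewal. Besides tp63 and pitx1, 11 of 13 features were too low to be tested. Among them lgr6, a receptor of mammalian skin stem cells, had 16 counts in tooth against 1 in taste bud, lgr5 had 2 against 2, bmi1 had 9 against 7, and celsr1 had 13 against 3. At these counts none of the 11 was tested.

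Of 24 tested solute carrier genes among 205 features, 6 were higher in tooth, 1 was higher in taste bud and 17 did not pass. The 29.2% called were near the 34.5% of all genes tested. The magnesium transporter gene slc41a2 had 1285, 724 and 547 CPM in tooth, against 6.78, 0 and 8.61 CPM in taste bud. The fructose transporter gene slc2a5 (279.8, 447 and 112 CPM) and the amino acid transporter gene slc6a14 (135, 71.5 and 139.7 CPM) had no taste bud count. In the other direction, the sugar cotransporter gene slc5a10 had 104, 35.8 and 31.9 CPM in tooth, against 386, 596 and 405 CPM in taste bud, 8.10-fold higher in taste bud. Of 11 tested secretory pathway and vesicle coat genes of 58, 3 were higher in tooth (27.3%, against 22.0% of all genes tested), 0 were higher in taste bud and 8 did not pass, with a median log2FC of 0.01. The coat gene sec23a, needed to export collagen from the endoplasmic reticulum, had 93.3, 268 and 231 CPM in tooth, against 20.3, 0 and 25.8 CPM in taste bud. The gene srp14, of the particle that targets nascent proteins to that compartment, had 871, 447 and 152 CPM in tooth, against 13.6, 5.57 and 8.61 CPM in taste bud.

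Smaller families held 1 or 2 calls each. Among all genes tested, calls favoured tooth at 22.0% and taste bud at 12.5%. Both cdkn2c and kcnh7, given below, passed the filter through tooth alone. The counts of calls therefore do not speak for whole families. Of 8 tested endoplasmic reticulum chaperones 2 (25.0%, against 22.0% of all genes tested) were higher in tooth, pdia6, which shuffles disulfide bonds, at 7.93-fold and hyou1 at 4.67-fold, the call of pdia6 ending with no filter (adjusted p = 0.0523) and that of hyou1 without taste bud replicates 1 or 2 (adjusted p 0.0666 to 0.118) and with no filter (0.155). Of 3 tested cell cycle genes the inhibitor gene cdkn2c, with 93.3, 206 and 83.8 CPM in tooth, against 0, 0 and 8.61 CPM in taste bud, and the thymidylate synthase gene tyms were higher in tooth; the call of tyms ended without tooth replicate 3 or taste bud replicates 1 or 2 (adjusted p 0.0872 to 0.325), with limma-voom (0.0607) and with no filter (0.161). Of 3 tested ion channels of 83 features, kcnh7, a potassium channel gene, had 207, 617 and 164 CPM in tooth, against 6.78, 11.1 and 8.61 CPM in taste bud and the calcium channel gene cacna1d was 8.68-fold higher in tooth. The collagen-binding integrin gene itga1 was at least 14.5-fold higher in tooth, the claudin gene cldn20 of tight junctions 8.18-fold and the basement membrane gene lama5 5.38-fold. The endosomal motor gene kif16b was 4.67-fold higher in tooth, and among 3 tested Rab genes of vesicle traffic, rab2a and rab13 were 4.27-fold and 5.23-fold higher. Several of these calls ended: kif16b without taste bud replicate 2 (adjusted p = 0.102) and with no filter (0.0765), lama5 without taste bud replicates 1 or 2 (adjusted p 0.053 to 0.113) and with no filter (0.132), rab2a without taste bud replicates 1, 2 or 4 (adjusted p 0.0553 to 0.104) and with no filter (0.184) and rab13 without tooth replicate 0 or taste bud replicates 2 or 4 (adjusted p 0.0582 to 0.13) and with no filter (0.137). Of 8 tested aminoacyl-tRNA synthetases, which load tRNAs with amino acids, qars was 3.07-fold higher in taste bud (adjusted p = 0.0407), a call that ended without tooth replicates 0 or 3 or taste bud replicates 1 or 2 (adjusted p 0.0845 to 0.154), with library totals alone (0.18), with limma-voom (0.0616), with no filter (0.0726) and at a minimum count of 20 (0.053). Of 2 tested retinoid genes rbp7 alone passed. None of 3 respiratory chain, 2 tricarboxylic acid cycle and 4 small GTPase regulator genes passed with edgeR, DESeq2 or limma-voom, nor at an unadjusted p under 0.05, and no Hox, cathepsin, glutamate receptor or glycolysis gene was high enough to be tested; of 21 Hox features 16 had no count in any of the 6 libraries.

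Housekeeping families had few calls. Over all genes tested 34.5% were called, 22.0% higher in tooth and 12.5% in taste bud. Of 68 tested ribosomal protein genes, 0 passed (edgeR), with log2FC between -1.57 and 0.94 and a lowest adjusted p of 0.0618. They leaned together toward taste bud, 58 of the 68 with a negative log2FC and a median of -0.59, against 0.04 over all genes tested. At an unadjusted p under 0.05 there were 3, and DESeq2 and limma-voom each called 1. None of 10 proteasome, 12 splicing factor and 11 chromatin genes passed with edgeR. Of these, 2, 1 and 1 had an unadjusted p under 0.05, DESeq2 called 0, 1 and 1, and limma-voom 0, 1 and 0. Of 18 translation factors 1 was higher in tooth, and of 7 immediate early and stress genes klf2, a factor of quiescent endothelium and basal epithelium, was higher in taste bud (62.2, 80.5 and 91.8 CPM in tooth, against 610.2, 374 and 568 CPM in taste bud; adjusted p = 9.59e-04). A missed threshold does not show that tissues were alike: the 95% interval of log2FC was no narrower than 1.09 on either side for any gene, with a median of 1.35, and 0 of all genes tested had an interval inside -1 to 1.

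**Figure D4:**
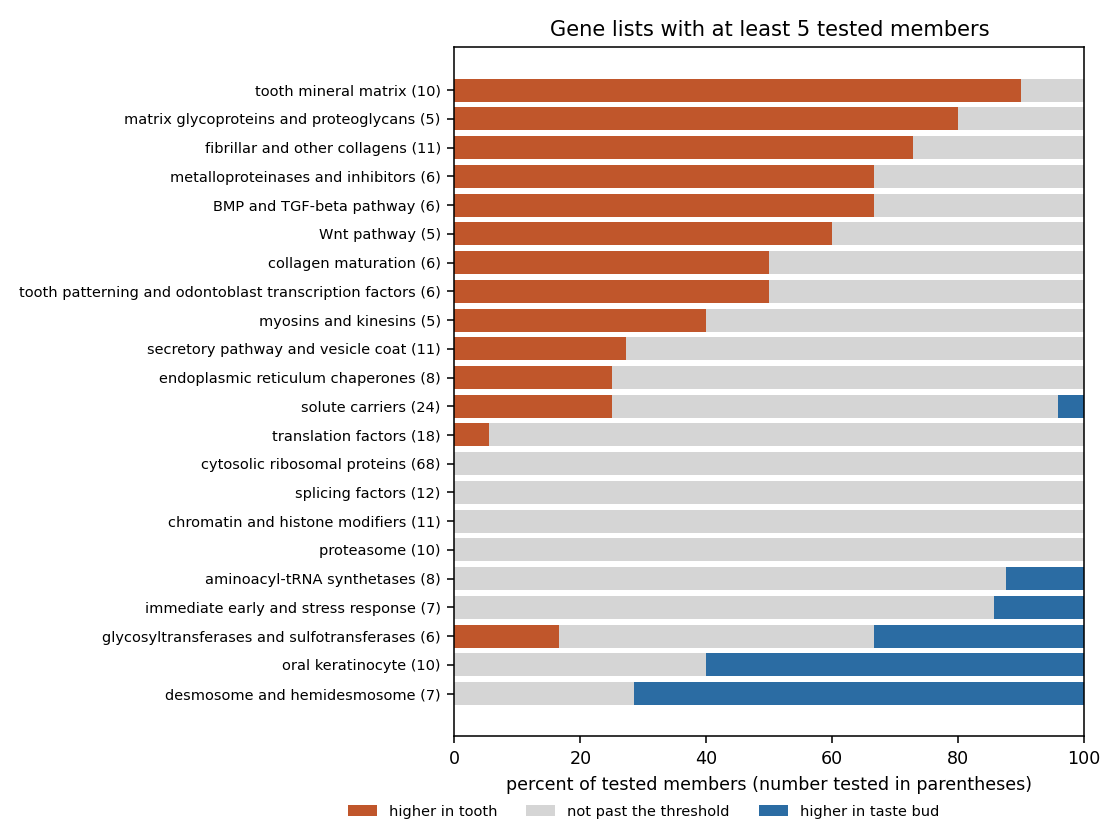
Gene lists with at least 5 tested members. Each bar splits the tested members (number in parentheses) of a list, in percent on the x axis, into those higher in tooth, those not past an adjusted p of 0.05 and those higher in taste bud. The tooth mineral matrix list has 9 of 10 members higher in tooth, and the desmosome and hemidesmosome list 5 of 7 higher in taste bud, against 22.0% and 12.5% of all genes tested. Each of those 9 passed the filter through tooth alone, so the filter fixed their direction. Members of other lists could also pass through 1 tissue alone, so the bars do not speak for whole lists. Over all features, 15 of 16 on the first list had a higher mean CPM in tooth. On the second, 6 of 10 had it in taste bud and 4 in tooth.

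Markers of other cells that a dissected tooth or a strip of lip could hold were summed over each list. Osteoclast genes, from the cells that resorb bone, summed to 93.3, 107 and 778 CPM in tooth, against 20.3, 11.1 and 17.2 CPM in taste bud over 9 features, 0 of them tested; the protease gene mmp9 had 10.4, 44.7 and 423 CPM in tooth, against none in any taste bud library and the integrin gene itgb3 10.4, 44.7 and 188 CPM in tooth, against none in any taste bud library. Most of that sum lay in tooth replicate 4, the library in which the matrix genes above were highest. Endothelial genes summed to 290.2, 233 and 894 CPM in tooth, against 122, 44.6 and 697 CPM in taste bud over 12 features and immune genes to 197, 89.4 and 938 CPM in tooth, against 325, 173 and 1085 CPM in taste bud over 9, where the 1 gene tested was cd74, the class II antigen chaperone, with 166, 53.7 and 798 CPM in tooth, against 305, 162 and 947 CPM in taste bud (adjusted p = 0.733). The gene passed when the 3 libraries richest in ribosomal protein counts were left out, with a log2FC of -3.25 that set the other tooth libraries against taste bud replicate 4 alone. Skeletal muscle genes summed to 808, 501 and 391 CPM in tooth, against 312, 452 and 758 CPM in taste bud, where actn3 had 114, 17.9 and 87.8 CPM in tooth, against 88.1, 111 and 499 CPM in taste bud (adjusted p = 0.103). Schwann cell and nerve genes summed to 363, 295 and 215 CPM in tooth, against 332, 162 and 86.1 CPM in taste bud; the myelin gene mpz was 50.2-fold (8.62 to 2021) higher in tooth. Cartilage genes summed to 207, 179 and 491 CPM in tooth, against 33.9, 16.7 and 68.9 CPM in taste bud, in tooth nearly all of it col11a1, and acan, the aggrecan gene that defines cartilage, had 1 count in tooth against 1 in taste bud. Mucous cell genes summed to 1233, 1028 and 491 CPM in tooth, against 929, 831 and 585 CPM in taste bud, in each library mostly from creb3l1, with 1223, 1028 and 459 CPM in tooth, against 779.7, 741 and 577 CPM in taste bud (adjusted p = 0.677). Sums for ionocyte, erythrocyte and pigment cell genes were at most 188 CPM in any library. The part of these cells in the tissue difference was not tested.

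Within tooth, replicate 4 differed from replicates 0 and 3 in opposite ways for different genes. All 9 called genes of the mineral matrix list, all 8 called collagens, all 4 called matrix glycoproteins and all 4 called proteases and inhibitors were highest in replicate 4. Over all genes higher in tooth, 168 of 494 (34.0%) were highest and 214 (43.3%) lowest there, against 41.9% and 37.9% of all genes tested. The ribosomal protein genes moved with the matrix genes: the log2 ratio of replicate 4 to the mean of replicates 0 and 3 had a median of 1.66 over 68 ribosomal protein genes, 1.69 over 10 mineral matrix genes and 0.00 over all tested. For the 12 named genes of largest CPM difference it was -1.01, with 5 of the 12 above 0 and 7 below.

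**Figure D5:**
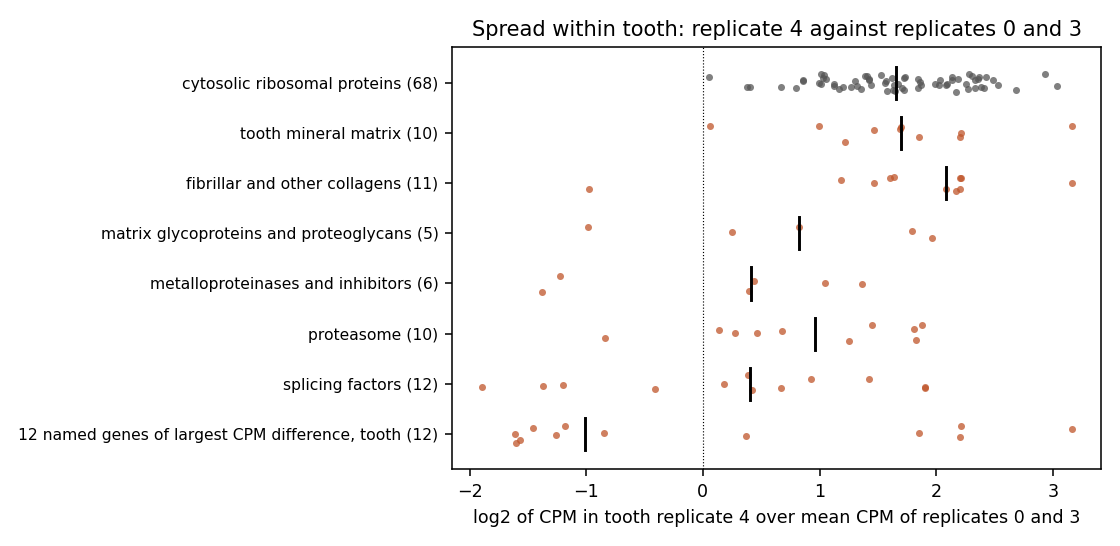
Spread within tooth. Each point is a tested gene and the x axis is the log2 of its CPM in tooth replicate 4 over the mean of tooth replicates 0 and 3; rows are gene sets with their number of genes, and black ticks are medians. Ribosomal protein and mineral matrix genes lie to the right (medians 1.66 and 1.69), and the 12 named genes of largest CPM difference fall on both sides (median -1.01).

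Set against ribosomal protein counts of the same library, a scale chosen after the data were seen, the mineral matrix list came to 48.3, 38.6 and 70.9 counts per 100 in tooth, against 0.424, 0.598 and 1.40 in taste bud. On that scale phex was at 1.53, 1.32 and 1.42 per 100 in the tooth libraries, close together, whereas afap1l2 was at 18.4, 26.1 and 2.60 and harbi1 at 56.4, 52.3 and 8.64. The cornified envelope list came to 0.250, 0.0966 and 0.187 in tooth, against 1.95, 3.37 and 5.40 in taste bud. On either scale the 2 tissues did not overlap for these lists. The part of ribosomal share in the tissue difference was not tested beyond the fits that leave out libraries or take it as a covariate.

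Features with only a locus number made up 1024 of the genes tested, with 232 higher in tooth and 169 in taste bud (39.2% called, against 30.6% of the 1219 named ones). The table does not pair these numbers with names. In tooth the largest CPM differences were LOC101471372, with 25019, 15614 and 10032 CPM in tooth, against 6.78, 5.57 and 17.2 CPM in taste bud, and LOC101468667, with 9421, 18861 and 11608 CPM in tooth, against none in any taste bud library. In taste bud they were LOC105941146, with 1513, 8558 and 1736 CPM in tooth, against 396073, 338335 and 151099 CPM in taste bud, and LOC101485955, with 290.2, 796 and 1819.6 CPM in tooth, against 53452, 24919 and 13609.5 CPM in taste bud. Of all counts in a library, in genes tested or not, LOC105941146 held 26.4%, 24.4% and 11.9% in taste bud, against 0.131%, 0.778% and 0.145% in tooth.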

How the data were processed

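RNA from 3 replacement tooth and 3 taste bud samples of L. fuelleborni was measured by sequencing, with 1 µg RNA per stranded mRNA library, per the labels' protocols. The authors deposited raw read counts per gene feature (26490 features, 10619 named). In the submitters' processing notes HTSeq 0.6.1, TopHat2 2.0.9, limma 3.20.9, edgeR 3.6.8 and SAMtools 0.19 appear, in no stated role. Genome build, annotation and counting strand: not given in the sources used here.

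Filter, scaling and test used these 6 libraries alone, in R 4.3.3 with edgeR 4.0.16: filterByExpr (minimum count 10, total 15), TMM and a robust quasi-likelihood fit of 2 tissue means, two-sided, with Benjamini-Hochberg adjustment over 2243 genes and a threshold of 0.05. The fit was run on simulated counts with the same preset spread for all genes, not estimated from these libraries. That run does not show how often calls here are wrong. With 3 against 3, an exact permutation test cannot go below 0.1, so none was run. A fold is the ratio of mean CPM. With 1 to 3 counts in a tissue it is the ratio of summed counts with its 95% interval, and with 0 counts a lower bound against 3 counts; both cover counting error only. Pairs of libraries within a tissue differed beyond sampling noise (chi-square per degree of freedom 4.45 to 17.6). Alternatives were other scalings, filters and tests (DESeq2 1.42.0, limma 3.58.1 voom), a ribosomal share covariate and libraries left out.

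Named genes were, per direction, the 12 of largest absolute log2FC (average log2 CPM of at least 5) and the 12 of largest CPM difference among called genes whose tissues did not overlap, 2 unnamed features, and members of 57 gene lists. Of the list members, those named beyond the 4 most abundant tested ones were chosen after their values were seen. A few genes that the rule names are not reported here. Members and lists were chosen with earlier results of these data known.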

Additional observations from a re-analysis of the deposited data

How the results depend on the processing

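No paired analysis was possible because the tissues share only replicate number 4. The 774 calls (494 higher in tooth, 280 in taste bud) were within 1.5 times of that number under DESeq2 size factors, library totals alone, the DESeq2 test, limma-voom, the ribosomal share covariate, totals without LOC105941146 and the fit that left out the 3 libraries richest in ribosomal protein counts. That last fit called 802, split evenly at 401 and 401, and 502 of the 724 calls it could test remained, and 1, ipp, changed sign without being called there. Of the genes named in the report, 22 lost their calls there (cacna1d, col11a1, col6a1, col6a2, fbn1, foxf1, hyou1, itga1, pdia6, perp, phospho1, ptch1, qars, rab13, rab2a, sema4c, slc13a5, st14, syce1, tex11, tyms and ugcg). Library totals alone raised log2FC by a median of 0.45 and gave 593 and 211. Without a filter, 1420 of 19260 genes passed (856 and 564), and with a minimum count of 20, 438 of 1197 (265 and 173), where fewer genes were tested. Leaving out 1 library gave 733 to 1274 calls, 476 to 829 in tooth and 257 to 445 in taste bud; the highest counts came without taste bud replicate 4, where 3562 genes passed the filter. Genes with a 95% interval inside -1 to 1 numbered 0 as reported, 1 with library totals, 12 without a filter, 44 with the covariate and 0 to 3 with 1 library left out; the cause was not tested. Of the genes named, those whose log2FC changed sign were not called where it did: ankh, at 0.01, gave -0.02 with DESeq2 size factors, -0.02 with DESeq2 test, -0.03 with limma-voom, -0.28 without a filter, -0.32 to 0.17 with 1 library left out; pitx1, at 0.55, gave -0.15 to 0.79 with 1 library left out; cd74, at -0.43, gave -2.09 to 0.33 with 1 library left out. The genes dlx3, nrarp, apc2, actn3, trpm5 and cd74, not called as reported, passed under some alternatives. Depth limits low genes: the median tested gene had 130.0 counts over the 6 libraries.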
